A study of Mus musculus with 4 samples.

Results

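The genes described here are 8 mouse genes for C-type lectin receptors of myeloid cells: Clec4e, Clec4d, Clec4n, Clec4a1, Clec4a2, Clec4a3, Clec12a and Clec2d. They were taken by symbol from a table of 17519 genes, and all 8 were present. The set was chosen by symbol, but with the day 0 and day 1 FPKM values and log2 changes of this table in view, so those values, and the calls that a fit over all genes gives for the members, are a description and support nothing about them. RNA was sequenced from cells of the adult mouse spleen (C57Bl.6) that carry MHC class II and were purified with magnetic beads. In the day 0 group (1 library) the cells were fresh and had no polysaccharide A (PSA), the capsule sugar of the gut bacterium Bacteroides fragilis. In the day 1 group (3 libraries) they had been in culture medium with 50 µg/ml PSA for 24 h. Cells cultured for the same time without PSA were not analysed here, so PSA and time in culture cannot be told apart, and the labels do not state that the day 1 libraries are separate animals or cultures. Levels are FPKM (fragments per kilobase of transcript, scaled to the mapped reads of the library). The MHC class II genes H2-Ab1, H2-Aa and H2-Eb1 stood at 4529, 2130 and 882 FPKM at day 0 and at 3434 to 5092, 2795 to 3797 and 1521 to 1788 at day 1, and most of the marker signal was that of B cells.

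C-type lectin receptors bind sugars, lipids or products of dying cells. Mincle (Clec4e), MCL (Clec4d) and Dectin-2 (Clec4n) recognise microbial glycolipids and mannans, and signal through the adaptor FcR gamma (Fcer1g), the kinase Syk and a complex of Card9, Bcl10 and Malt1. DCIR1 (Clec4a2) and MICL (Clec12a) carry an inhibitory tyrosine motif that recruits the phosphatases encoded by Ptpn6 and Ptpn11. Clec4a1 and Clec4a3 encode the related DCIR4 and DCIR3. Clec2d encodes Clr-b, a surface protein of many blood cells that NK cells read through inhibitory NKR-P1 receptors.

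All 8 genes lie on chromosome 6 (GRCm38, GENCODE M21). Clec4a1, Clec4a3, Clec4a2, Clec4n, Clec4d and Clec4e share a segment of 0.368 Mb (chr6:122921848-123289870), and Clec4d and Clec4e are neighbours on opposite strands, 6524 bp apart. Clec2d (chr6:129180615-129186534) and Clec12a (chr6:129342691-129365303) lie 5.89 Mb and more beyond, within the NK gene complex. In the deposited table the identifiers are ENSMUSG00000030142 for Clec4e, ENSMUSG00000030144 for Clec4d, ENSMUSG00000023349 for Clec4n, ENSMUSG00000049037 for Clec4a1, ENSMUSG00000030148 for Clec4a2, ENSMUSG00000043832 for Clec4a3, ENSMUSG00000053063 for Clec12a and ENSMUSG00000030157 for Clec2d. Clec4e spans chr6:123281789-123289870 (minus strand), and on the plus strand Clec4d spans chr6:123262111-123275265, Clec4n chr6:123229843-123247021, Clec4a2 chr6:123106428-123143999, Clec4a3 chr6:122952515-122969875 and Clec4a1 chr6:122921848-122934619. RefSeq (GRCm38.p6) gave a promoter window for 7 of the 8 members. The 250 bases before the start are shown for Clec4e and Clec4d, the neighbouring genes that were listed at 0 at day 0 and are called higher in the authors' deposited table, and for Clec12a, whose levels lay close together on the days. They are written 5′ to 3′ on the gene's own strand, and capitals mark matches to the motifs searched on both strands.
Clec4e: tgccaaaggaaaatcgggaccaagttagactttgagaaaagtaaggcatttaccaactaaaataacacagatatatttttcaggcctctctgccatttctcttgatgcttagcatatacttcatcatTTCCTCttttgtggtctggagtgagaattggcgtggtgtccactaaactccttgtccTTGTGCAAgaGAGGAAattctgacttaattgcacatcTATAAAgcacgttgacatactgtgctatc
Clec4d: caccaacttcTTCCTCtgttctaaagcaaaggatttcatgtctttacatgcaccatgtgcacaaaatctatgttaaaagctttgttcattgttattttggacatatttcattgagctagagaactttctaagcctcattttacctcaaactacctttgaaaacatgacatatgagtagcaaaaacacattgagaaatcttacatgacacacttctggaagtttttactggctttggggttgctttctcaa
Clec12a: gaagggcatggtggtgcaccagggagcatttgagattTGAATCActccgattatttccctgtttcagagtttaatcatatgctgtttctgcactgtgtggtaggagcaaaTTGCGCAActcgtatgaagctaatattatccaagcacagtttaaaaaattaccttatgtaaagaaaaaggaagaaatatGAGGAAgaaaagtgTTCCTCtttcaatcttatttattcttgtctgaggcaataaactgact
These windows are chr6:123289872-123290121 (minus strand) for Clec4e, chr6:123261857-123262106 (plus strand) for Clec4d and chr6:129349994-129350243 (plus strand) for Clec12a. The core letters of PU.1, the master transcription factor of myeloid cells (GAGGAA), were found in 5 of the 8 windows of these 7 members (those of Clec4e, Clec4d, Clec4a1 and Clec12a and 1 of the 2 of Clec4a3) and in 23.3% of 32851 windows of all genes. A C/EBP match (TTGCNNAA) was found before Clec4e and Clec12a and in 9.56% of all windows. In the Clec4e window a PU.1 match starts at -56, a C/EBP match at -66 and a TATA box (TATAAA, 12.4% of all windows) at -29, counted from -1 at the base before the start. NF-kappaB letters (GGGA and CC with any 4 bases between them, 17.6%) were found before Clec4a1 only, AP-1 letters (TGANTCA, 6.75%) before Clec12a only, and interferon response letters (GAAA and GAAA with any 2 bases between them, 2.98%) before Clec2d only. No match of 1 motif overlapped a match of another. Such matches are letters in a window and not shown binding.

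The day 0 library was shallow, and this limits each comparison below. Judged by the FPKM that 1 fragment is worth, the depth of day 1 replicates 1, 2 and 3 was 14.1, 15.9 and 21.8 times that of day 0. Listed zeros at day 0 are not evidence of absence: 7378 genes were at 0 in that library, 7 of 76 ribosomal protein genes among them, against 2073 to 2663 in the day 1 libraries. Intervals below are exact Poisson 95% intervals for fragments estimated from the longest coding transcript, and cover counting error only. For genes that are not members, fragments were estimated from all exons of the gene instead. A rise called for any gene listed at 0 at day 0 carries the same limit. A fall called for a gene of low level can rest on few fragments at day 0, as for Clec4a4 with about 1.04.

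The receptors that signal through FcR gamma were all listed at 0 at day 0 and at single-digit FPKM at day 1. Clec4e, for Mincle, had a listed 0 at day 0 and then 3.99, 3.58 and 4.29 FPKM in the day 1 libraries (3.96 ± 0.36, SD, n = 3). Clec4d, for MCL, had a listed 0 and then 5.05, 4.91 and 5.67 FPKM (5.21 ± 0.40, SD, n = 3). Clec4n, for Dectin-2, had a listed 0 and then 5.36, 4.39 and 5.48 FPKM (5.07 ± 0.60, SD, n = 3). The day 1 libraries lay close together for these genes, above the day 0 entry in 3 of 3 libraries each. The day 1 values stand for about 30.1, 30.5 and 50.0 fragments of Clec4e, 20.0, 22.0 and 34.7 of Clec4d and 19.7, 18.2 and 31.1 of Clec4n. At the day 1 level, the day 0 library would hold about 2.11 fragments of Clec4e, 1.46 of Clec4d and 1.32 of Clec4n. A count of 0 allows up to 3 fragments, which is an FPKM of 5.61 for Clec4e, 10.7 for Clec4d and 11.5 for Clec4n. Each of these limits is above the day 1 mean of its gene, so the FPKM values alone cannot show a difference for any of the Mincle, MCL and Dectin-2 genes at this depth.

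**Figure D1:**
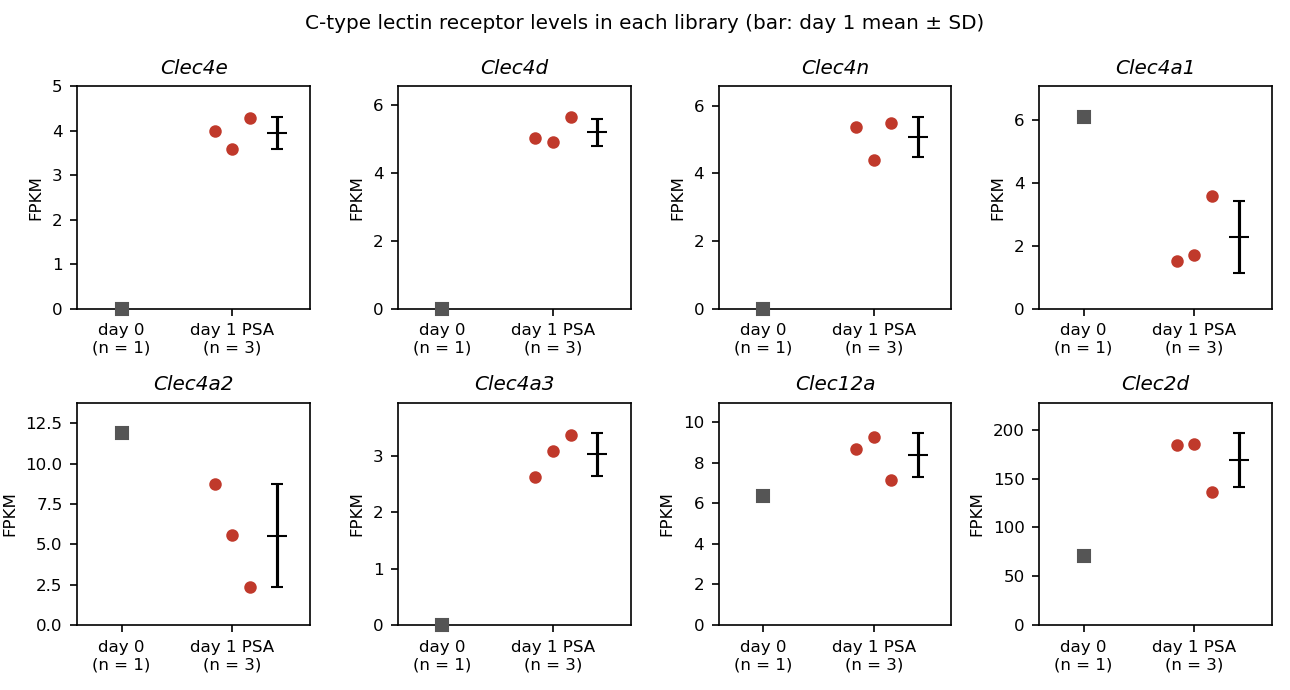
FPKM of each of the 8 receptor genes by library, with day 0 as a square (1 library), the 3 day 1 libraries as circles and their mean ± SD as a bar; each panel has its own axis from 0. Clec4e, Clec4d, Clec4n and Clec4a3 are listed at 0 at day 0, Clec4a1 and Clec4a2 are lower in all 3 day 1 libraries than at day 0, and Clec2d and Clec12a are higher.

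The listed values of the DCIR genes differed in sign between the days, but no difference beyond counting error was detectable at this depth. Clec4a2, for the inhibitory DCIR1, stood at 11.9 FPKM when fresh, against 8.73, 5.56 and 2.35 after culture (5.55 ± 3.19, SD, n = 3). All 3 day 1 libraries were below day 0, but they spread widely. Clec4a1, for DCIR4, stood at 6.10 FPKM when fresh, against 1.51, 1.71 and 3.59 after culture (2.27 ± 1.15, SD, n = 3), again below day 0 in 3 of 3 libraries. Clec4a3, for DCIR3, had a listed 0 and then 2.62, 3.09 and 3.36 FPKM (3.03 ± 0.38, SD, n = 3). The day 0 value of Clec4a1 rests on about 2.02 fragments and that of Clec4a2 on about 6.26. The ratio of day 1 to day 0 rates was 0.405 for Clec4a1, with a counting interval of 0.105 to 3.46, and 0.447 for Clec4a2, with an interval of 0.200 to 1.24. Both intervals include equal levels. Clec4a3 would hold about 0.835 fragments at day 0 at its day 1 level, where a count of 0 allows an FPKM of up to 10.9. Summed over the 3 DCIR genes, FPKM was 18.0 at day 0 and 12.9, 10.4 and 9.30 at day 1, while the sum over Clec4e, Clec4d and Clec4n was 0 at day 0 and 14.4, 12.9 and 15.4 at day 1.

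Clec2d and Clec12a were present in all 4 libraries. Clec2d, for the NK cell ligand Clr-b, was by far the most abundant of the 8, with 71.0 FPKM when fresh, against 184, 185 and 137 after culture (169 ± 27.7, SD, n = 3). All 3 day 1 libraries were above day 0, a ratio of means of 2.38, and the counting interval of the rate ratio was 1.49 to 3.98 on about 18.3 fragments at day 0. The log2 change of Clec2d on the log2(FPKM + 1) scale was 1.22 ± 0.24 (SE), or 0.63 relative to the median change of all genes, which is 0.59 with genes listed at 0 at day 0 and 0.018 over genes above 0. Clec12a, for the inhibitory receptor MICL that senses uric acid crystals, stood at 6.35 FPKM when fresh, against 8.68, 9.25 and 7.15 after culture (8.36 ± 1.09, SD, n = 3). Its log2 change was 0.34 ± 0.20 (SE) but -0.25 relative to that median of 0.59; relative to genes above 0 at day 0, with a median of 0.018, it keeps its sign. For Clec12a the counting interval of the rate ratio, 0.491 to 7.10, includes equal levels.

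**Figure D2:**
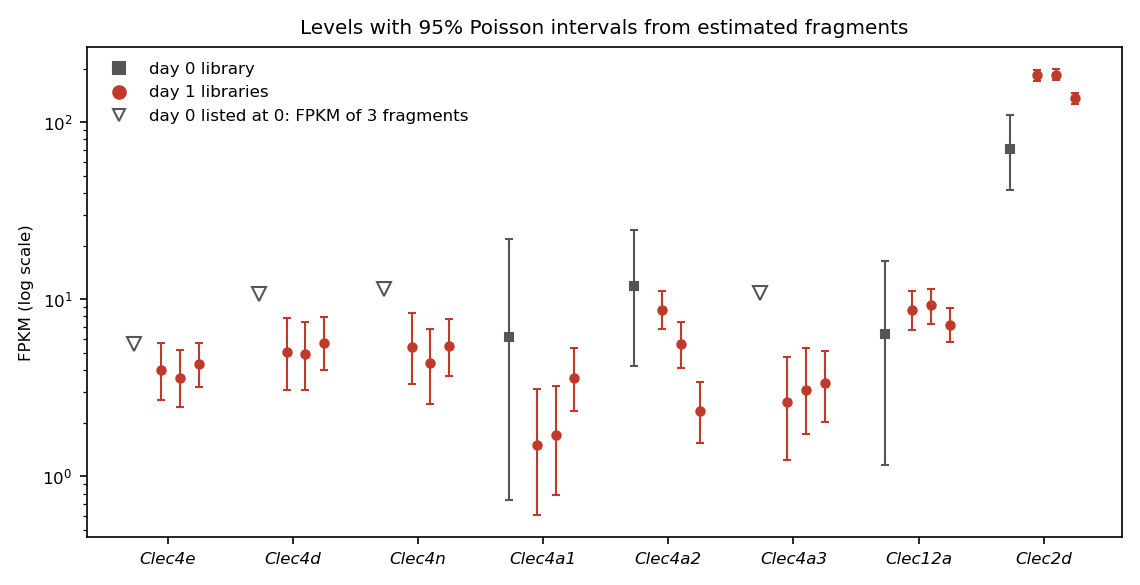
FPKM on a log scale for the 8 receptor genes, with exact Poisson 95% intervals from estimated fragments; squares are day 0, circles the 3 day 1 libraries, and open triangles mark the FPKM of 3 fragments where day 0 was listed at 0. The triangles lie above the day 1 means of Clec4e, Clec4d, Clec4n and Clec4a3, and the day 0 interval of Clec2d, 41.4 to 110, lies below all 3 day 1 values.

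At day 1 the order of mean FPKM was Clec2d, Clec12a, Clec4a2, Clec4d, Clec4n, Clec4e, Clec4a3 and Clec4a1. The ranges over the 3 libraries did not overlap between Clec2d and Clec12a, between Clec4n and Clec4e, or between Clec4e and Clec4a3. Every other neighbour in that order overlapped the next. At day 0 the order was Clec2d, Clec4a2, Clec12a and Clec4a1, with the other members listed at 0, and the counting intervals of Clec4a2, Clec12a and Clec4a1 overlapped. Among 3049 protein-coding genes with a day 1 mean FPKM between 2.27 and 8.36, the highest day 1 library was 1.45 times the lowest at the median. For Clec4a2 this ratio was 3.71, a value that 2.13% of those genes reach, and its intervals of 6.76 to 11.2 in replicate 1 and 1.55 to 3.42 in replicate 3 did not overlap. For Clec4a1 it was 2.38, which 8.33% reach, and here replicate 3 was the highest. The ratio was 1.15 to 1.36 for the other members. Of the 25-base words in the coding transcripts of Clec4a2, 13.7% also occur in transcripts of other genes, its neighbour Clec4b1 holding 6.36%, and of its 50-base words 6.83% do, its neighbour Clec4a4 holding 3.85%. The share of 25-base words was 18.7% for Clec2d (Clec2i holding 8.58%), 4.45% for Clec4a3, 3.51% for Clec4n, 1.54% for Clec12a, 0.652% for Clec4a1 and 0 for Clec4d and Clec4e. No source used here states how shared reads were placed, so the values of Clec4a2 and Clec2d are uncertain, and the part of shared sequence in the spread of Clec4a2 was not tested.

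With limma on log2(FPKM + 1), 5 of the 8 members were called higher at day 1 (Clec4e, Clec4d, Clec4n, Clec4a3 and Clec2d; Benjamini-Hochberg adjusted over all genes, threshold 0.05), where 35% of 13903 tested genes were. None was called lower at that threshold, where 19% of tested genes were. At an unadjusted p under 0.05 none was lower either, where 3051 of 13903 tested genes were. Of genes listed at 0 at day 0, 53.7% were called higher, and of genes above 0 at day 0, 27.8% were called higher and 26.3% lower. All 3 day 1 libraries lay above day 0 for 6 members, where 53.7% of tested genes did so, and below it for Clec4a1 and Clec4a2, where 31.4% did. These counts describe the contrast the members were proposed on: 4 of the 5 were listed at 0 at day 0 and passed the filter on low values only through day 1. The fitted log2 change of those 4 is set by the pseudocount, at 2.01 to 2.63 with 1 and at 4.96 to 5.73 with 0.1, and is no bound. Of all tested genes, 4869 were called higher and 2640 lower, but 3034 and 3895 with the median change of 0.59 set to 0, and Clec2d then lost its call. Clec2d also lost it without day 1 replicate 1 or without replicate 2. Without replicate 3, Clec4a1 was called lower. Over all tested genes, too, leaving out any day 1 library gave fewer calls in each direction, and the fewest without replicate 2.

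The authors' deposited table gives a different picture of these genes. It calls Clec4e and Clec4d higher, with log2 fold changes of 4.63 and 7.59 and false discovery rates of 0.0114 and 0.0174, and 0.28% of 17519 genes are called higher there. The authors' deposited table puts Clec4n at 0.52 and Clec4a3 at 0.16 on the log2 scale and calls neither, although their FPKM pattern of 0 at day 0 is the same as that of Clec4e and Clec4d. The authors' deposited table has Clec2d at 0.73, Clec12a at -0.51, Clec4a1 at -1.03 and Clec4a2 at -1.95, none of them called. Of all genes, 2.53% are called lower there, no member among them. At an unadjusted p under 0.05, 1 member (Clec4a2) is lower there, where 1293 of 17519 genes are. These folds are not made from the deposited FPKM: of 394 genes listed at 0 in all 4 libraries, 393 are given a log2 fold change beyond 1 in either direction by the authors' deposited table. Among 355 protein-coding genes listed at 0 at day 0 with a day 1 mean FPKM between 3.03 and 5.21, as for the 4 receptors, the authors' deposited table has a median log2 fold change of 0.40, with 80% of genes between -0.34 and 1.55. The authors' deposited table calls 7 of the 355 higher, Clec4e and Clec4d among them. In that range 86.5% of genes were called higher by limma on FPKM.

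**Figure D3:**
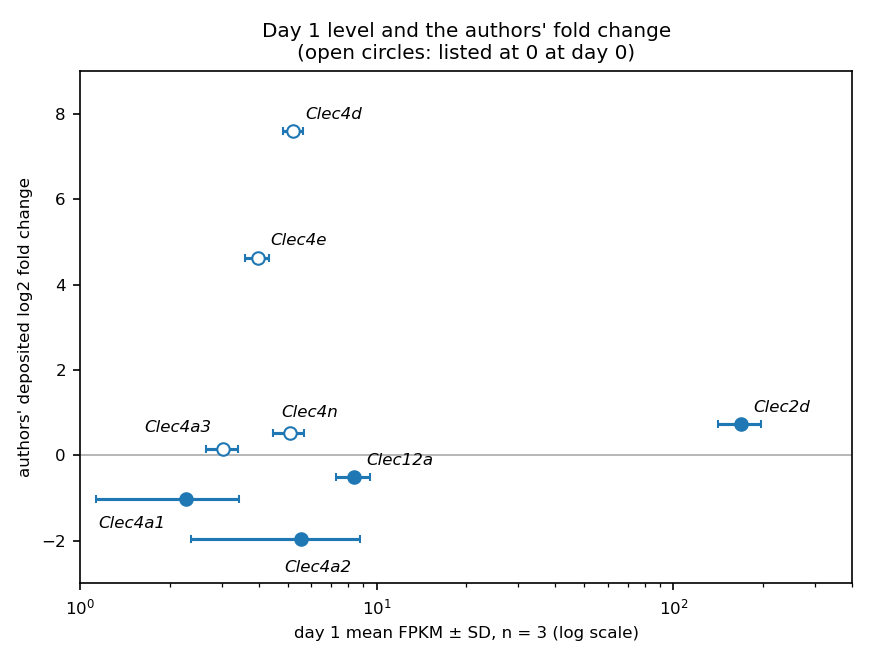
Log2 fold change of the authors' deposited table (vertical axis) against the day 1 mean FPKM with its SD over 3 libraries (horizontal axis, log scale) for the 8 receptor genes; open circles were listed at 0 at day 0. Clec4e, Clec4d and Clec4n have day 1 means of 3.96 to 5.21, but Clec4e and Clec4d lie at 4.63 and 7.59 on the vertical axis and Clec4n at 0.52.

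The neighbours of the receptors on chromosome 6 differed in direction. Between Clec4a1 and Clec4e, 8 of 9 coding genes were in the table. Limma called 4 of them higher and 1 lower, where 35% and 19% of all tested genes were. The 4 were members listed at 0 at day 0 and were proposed with these values in view. Of all tested genes so listed, 53.7% were called higher. The gene called lower was Clec4a4, for DCIR2 of dendritic cells. It had 6.30 FPKM when fresh, about 1.04 fragments, against 2.02, 1.58 and 1.89 after culture. Its log2 fold change is 0.03 by the authors' deposited table. Clec4b1, for the activating DCAR, had a listed 0 and then 1.04, 0 and 0.597 FPKM. Clec4a4 and Clec4b1 were named after their values were seen. From Klrb1a to Clec1a in the NK gene complex, 11 of 19 coding genes were tested. Of these, 4 were called higher and 3 lower, beside the same 35% and 19% of all tested genes.

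The signalling genes behind these receptors were mostly present on both days, and 11 of 23 rose and none fell in limma, where 35% of all tested genes rose and 19% fell. The median log2 change was 0.80, against 0.59 over all tested genes, and 0.70 over the 22 above 0 at day 0, against 0.018 over all such genes. At an unadjusted p under 0.05, 14 rose and 1 fell in limma, where 5539 and 3051 of 13903 tested genes did. The authors' deposited table calls none of the list in either direction. Bcl10, the middle part of the Card9 complex, rose from an FPKM of 2.67, about 2.58 fragments, to 26.6 ± 3.7 (SD, n = 3), or by 2.90 ± 0.20 (SE) on the log2 scale, with a limma adjusted p of 0.0046. Rubcn, an inhibitor of Card9 signalling, rose from 7.84 to 34.7 ± 2.1 (SD, n = 3), and Prkcd, the kinase that activates Card9, from 42.7 to 110 ± 3.4 (SD, n = 3). Other genes of the list were chosen after their values were seen. Fcer1g, the shared adaptor, stood at 22.0 FPKM when fresh, against 30.6, 38.6 and 32.7 after culture, and did not pass (limma adjusted p = 0.067). Syk rose from 51.9 to 109 ± 9.9 (SD, n = 3), and Card9 rose from a listed 0 to 4.17, 2.80 and 4.91. Ptpn6, a phosphatase of the inhibitory receptors, stood at 733 FPKM when fresh, against 650, 578 and 418 after culture, and did not pass (limma adjusted p = 0.31). Ptpn11, the other phosphatase, rose from 4.15 to 7.79, 9.43 and 10.2 FPKM (limma adjusted p = 0.030). The count of rises was 4 without day 1 replicate 2, and with the median of all genes set to 0 it was 6, with 3 falls.

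Other C-type lectin genes went in both directions, with 4 rises and 7 falls among 19 tested of 28 measured (median log2 change 0.51, and -1.19 over the 12 above 0 at day 0, where all genes had 0.018). Of all tested genes, limma called 35% higher and 19% lower. Of those above 0 at day 0, it called 27.8% higher and 26.3% lower. Cd72, a B cell lectin that restrains the antigen receptor, rose from an FPKM of 85.9 to 294 ± 21.6 (SD, n = 3), or by 1.76 ± 0.14 (SE) on the log2 scale, with a limma adjusted p of 0.0054. Clec2i, a relative of Clec2d, rose from 8.87 to 27.5, 39.0 and 53.1. Cd209c, a relative of DC-SIGN, fell from 31.8 to 7.23 ± 1.97 (SD, n = 3), and Mrc2, a collagen receptor, from 5.89 to 0.275 ± 0.204 (SD, n = 3), but the authors' deposited table puts their log2 fold changes at -0.58 and -0.004. Clec7a, for the beta-glucan receptor Dectin-1 and chosen after its values were seen, rose from a listed 0 to 1.90, 1.82 and 2.91 FPKM (limma adjusted p = 0.020). In this list the authors' deposited table calls 1 gene, Cd69, lower and none higher. At an unadjusted p under 0.05 it has 1 higher and 6 lower, where 414 and 1293 of 17519 genes are. Without day 1 replicates 1, 2 and 3 in turn, limma called 2 rises each time and 4, 1 and 3 falls, and with the median of all genes set to 0 it called 1 rise.

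**Figure D4:**
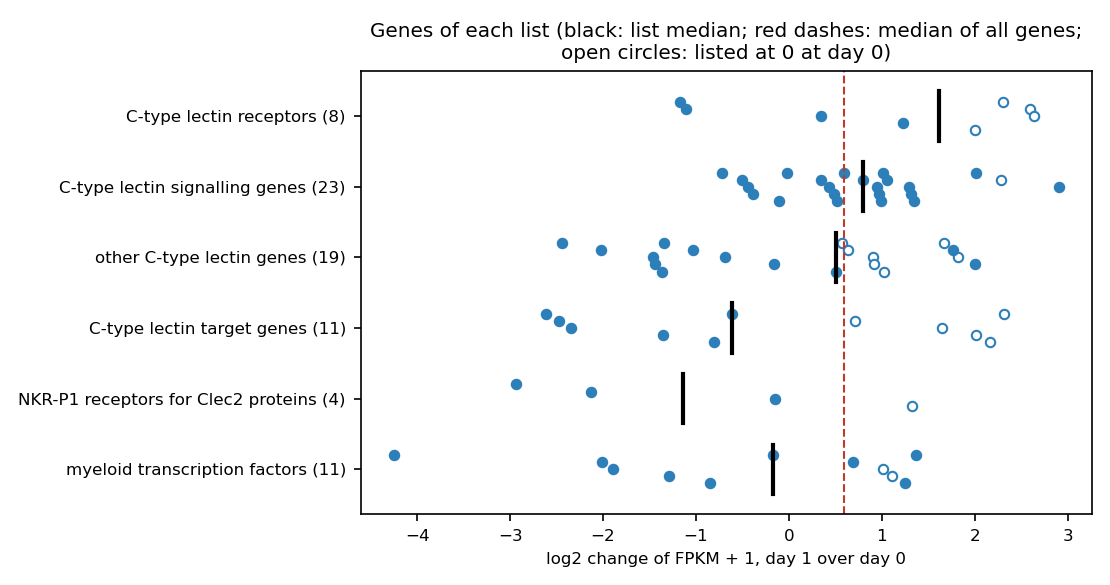
Log2 change of FPKM + 1 from day 0 to day 1 for each tested gene of 6 lists (number tested in brackets), with black bars for list medians, a dashed line for the median of all tested genes (0.59) and open circles for genes listed at 0 at day 0, whose position depends on the pseudocount of 1. The signalling genes lie around the dashed line with a median of 0.80, while the targets and the NKR-P1 receptors have medians of -0.61 and -1.14.

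Among 11 tested genes that these receptors can induce, 4 rose (Il1b, Tnf, Il10 and Cxcl2, named after their values were seen, each from a listed 0) and 3 fell, with a median log2 change of -0.61. Of all tested genes, 35% rose and 19% fell in limma, with a median of 0.59. Of those listed at 0 at day 0, 53.7% rose. Egr2, a transcription factor, fell from an FPKM of 24.2 to 4.16 ± 1.56 (SD, n = 3). Ccl3, a chemokine, fell from 12.8, about 2.08 fragments, to 8.06 ± 0.52 (SD, n = 3), and Csf2, which encodes GM-CSF, from 6.10, about 1.04 fragments, to 0, 0 and 0.557. No target is called in the authors' deposited table. In it, at an unadjusted p under 0.05, none was higher and 3 were lower, where 414 and 1293 of 17519 genes were. Leaving out day 1 replicate 1, 2 or 3 left 2, 1 and 2 rises and 1, 0 and 1 falls, and setting the median of all genes to 0 left 2 rises. The NKR-P1 receptor genes, a family that includes partners of Clec2 proteins on NK cells, gave 1 rise and 1 fall among 4 tested. The shares of all tested genes were the same 35% and 19%. Klrb1c, for NK1.1, fell from 16.1 to 1.25 ± 0.26 (SD, n = 3; limma adjusted p = 0.0046), and the authors' deposited table also calls this fall. Klrb1b, for the receptor NKR-P1B, was chosen after its values were seen. It stood at 2.10 FPKM, about 0.994 fragments, and then at 1.08, 1.91 and 2.60, and did not pass. The rise, of Klrb1 from a listed 0, was lost without any 1 of the day 1 libraries, and without replicate 3, or with the median of all genes set to 0, there were 0 rises and 2 falls.

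Of the myeloid transcription factors 3 rose and 4 fell among 11 tested in limma, where 35% of all tested genes rose and 19% fell. Of tested genes above 0 at day 0, 27.8% rose and 26.3% fell. Spi1, which encodes PU.1, rose from an FPKM of 41.7 to 86.4, 118 and 128 (limma adjusted p = 0.030). The authors' deposited table gives it a log2 fold change of 0.20 and no call. Klf4 fell from 28.3 to 0.561 ± 0.300 (SD, n = 3), Zeb2 from 24.6 to 5.39 ± 0.63 (SD, n = 3) and Runx1 from 32.2 to 7.97 ± 0.99 (SD, n = 3). Cebpb, a C/EBP factor named after its values were seen, fell from 12.6 to 4.57 ± 0.42 (SD, n = 3). The authors' deposited table calls Cebpb and Klf4 lower. The rises numbered 0 without day 1 replicate 2 and 1 without replicate 3, and the falls 2 without replicate 2. With the median of all genes set to 0 no factor of the list rose, Spi1 included.

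In bulk RNA, fewer cells of a type and less RNA per cell cannot be told apart, so markers of the cells that carry these receptors are set beside them. For the counts of markers called, the limma shares over all tested genes were 35% higher and 19% lower. Of tested genes listed at 0 at day 0, 53.7% were called higher. The summed FPKM of 9 monocyte markers was 119 at day 0 and 139 to 149 at day 1, with 3 of the 9 at 0 at day 0 (Fcgr1, Cd14 and F13a1), and limma called 2 higher and 3 lower. That of 10 splenic macrophage markers was 124 at day 0 and 50.9 to 58.8 at day 1, with Mertk at 0 at day 0, 1 called higher and 6 lower. That of 10 conventional dendritic cell markers was 48.7 and then 40.4 to 44.1, with Zbtb46 and Itgae at 0 at day 0, 2 called higher and 4 lower. Neutrophils also carry Mincle and MCL. The sum of 10 neutrophil markers was 23.1 at day 0 and 69.5, 55.9 and 45.9 at day 1, with 7 at 0 at day 0 (S100a9, Mpo, Elane, Camp, Ltf, Ngp and Retnlg), 6 called higher and 1 lower. Clec4a2 had its highest and lowest day 1 values in the same libraries as this sum and as the B cell and plasmacytoid dendritic cell sums, and Clec4e, Clec4d and Clec4n did not. The 6 NK cell markers summed to 36.3 at day 0, with Ncr1, Klre1 and Prf1 at 0, and to 7.48 to 8.61 at day 1, and the 8 B cell markers to 3401 and then 3216 to 3841. Plasmacytoid dendritic cell markers (6) summed to 909 and then 914 to 1079, with 2 called higher and 3 lower. Chosen after their values were seen, Siglech fell from 222 to 13.5 ± 2.7 (SD, n = 3), while Ly6d, also made by B cells, rose from 429 to 909 ± 85.0 (SD, n = 3). T cell markers (7) summed to 113 and then 160 to 190, and the 5 measured mast cell and basophil markers to 0.974 and then 0.982 to 1.47. The authors' deposited table calls no marker of these cell types higher. It calls lower 3 monocyte, 5 splenic macrophage, 2 conventional dendritic cell, 1 plasmacytoid dendritic cell, 3 NK cell and 2 B cell markers. Of all genes, 0.28% are called higher there and 2.53% lower. The part of these cell types in the receptor values was not tested.

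Over log2(FPKM + 1) in the 4 libraries, the protein-coding genes nearest to each receptor were not C-type lectin genes. Nearest to Clec4e were Spindoc and Zfp119b (Euclidean distances 0.066 and 0.091), to Clec4d Pdcd1 and Eaf1 (0.028 and 0.059), to Clec4n Ift22 and Rnf141 (0.12 and 0.12), and to Clec4a3 Zfp951 and Klhdc10 (0.052 and 0.053). All 8 of these genes were also listed at 0 at day 0. Nearest to Clec2d were Rab4b and Smim14 (0.16 and 0.26), to Clec12a Pik3cg and Apba3 (0.18 and 0.18), to Clec4a1 Cep19 and Dnajc28 (0.33 and 0.39), and to Clec4a2 Xlr4c and 3110082I17Rik (0.57 and 0.65). With 4 libraries, such nearness describes levels only.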

How the data were processed

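Per the labels' protocols, adaptors were removed, reads under 10 nt were left out, and the authors estimated FPKM with Cufflinks. The submitters' processing notes name cutadapt, TopHat 1.4.1, Cufflinks 2.2.1, Cuffdiff and build GRCm38.p6. No source used here gives the annotation release, the use of strand or the placement of shared reads. The deposited table also holds the authors' log2 fold change, a mean log2 abundance, p-values and false discovery rates, whose test its header does not name. These were cited as deposited.

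Depth was estimated from the step that 1 fragment is worth, using 1182 single-transcript genes of GENCODE M21. Changes were computed with limma 3.58.1 (trend; R 4.3.3) from log2(FPKM + 1) over the 13903 genes that reached 1 FPKM in any library. P-values were adjusted by Benjamini-Hochberg (threshold 0.05), after a trial on simulated data. The simulated libraries for limma, day 0 included, were drawn from the day 1 means and spread. They thus did not cover the low depth of day 0. Day 0 has 1 library, which borrows the spread of the 3 from day 1 (2 residual degrees of freedom); p-values thus cover only differences among those 3, possibly technical ones. Members, lists, markers and alternatives were chosen with earlier results of these data known. Genes named from a list were up to 4 with the largest log2 change among those called that reached 5 FPKM in whichever group was higher. A gene that this rule names is not reported here. The nearest 2 genes per member, by Euclidean distance, were named too. List symbols were matched through gene IDs. Alternatives changed the pseudocount, the filter, the scaling, the genes at 0 and the libraries used.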

Additional observations from a re-analysis of the deposited data

How the results depend on the processing

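Of 52 recomputed log2 changes of single receptors, 51 kept their direction (Clec12a changed sign with the median set to 0), 48 stayed on the same side of the threshold and 11 moved by more than the day 1 SD. The count of receptors called higher was 5 in the main analysis and 1 when genes listed at 0 at day 0 were left out, since that choice removes 4 of the 8; leaving out a day 1 library gave 4 to 5 higher and 0 to 1 lower. With the median change of all genes set to 0, the signalling list gave 6 rises and 3 falls, other C-type lectins 1 rise, targets 2 rises, NKR-P1 receptors 0 rises and 2 falls, and myeloid transcription factors 0 rises. With genes at 0 at day 0 left out, other C-type lectins gave 2 rises, targets 0 and NKR-P1 receptors 0, by the construction of that choice. Leaving out a day 1 library gave 4 to 8 rises and 0 falls for signalling genes, 2 rises and 1 to 4 falls for other C-type lectins, 1 to 2 rises and 0 to 1 falls for targets, 0 rises and 1 to 2 falls for NKR-P1 receptors, and 0 to 2 rises and 2 to 4 falls for transcription factors. Fewer calls without a day 1 library are not particular to these lists, since the calls over all genes also dropped in each direction. A pseudocount of 0.1 and no filter on low values kept every list count within 1.5 times. The cause was not tested where the choice itself does not show it. No paired analysis was possible because day 0 has 1 library. Depth at day 0 limits every member, Clec2d with about 18.3 fragments the least.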
